A study of Homo sapiens with 66 samples.

Results

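The RNA-seq libraries described here came from DLD-1 cells, an established human colorectal adenocarcinoma line, in which RANGAP1 was removed for 8 h with an auxin-inducible degron (AID). The 6 libraries of the comparison are 3 RANGAP1-AID samples after 8 h of auxin and 3 untreated RANGAP1-AID samples, chosen by their labels, of 66 samples in the whole series. In all of them both copies of RANGAP1 carry a C-terminal NeonGreen-AID tag and the plant ubiquitin ligase subunit TIR1 is expressed from the RCC1 locus, so the untreated cells share the tag and TIR1 and differ only in auxin, which was given at 1 mM. The 3 RANGAP1-AID samples after 2 h of auxin were used to place each change in time. Lines depleted of other proteins, with 3 samples after 8 h of auxin and 3 untreated samples each, were NUP153-AID and the AID-TPR libraries that the labels call old. They were used to ask whether an effect differed between lines. Parental DLD-1 cells (3 untreated, 3 with auxin for 2 h) were the auxin control, and no parental cells with 8 h of auxin were analysed here. Each edited line is a clone, so an effect of RANGAP1 loss and a response of this clone to auxin cannot be told apart. The 3 untreated RANGAP1-AID libraries held 28208309 to 36934636 counted fragments and the 3 libraries at 8 h 30693228 to 42107386. Levels are given as CPM (a gene's count scaled to a common library size) after scaling by the trimmed mean of M-values (TMM), and changes as log2 fold changes with their standard error (SE) from 3 against 3 samples.

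RANGAP1 is the GTPase-activating protein of Ran. It sits in the cytoplasm and on the outer face of the nuclear pore, where it makes Ran hydrolyse GTP, while RCC1 on chromatin loads Ran with GTP. The gradient of RanGTP between nucleus and cytoplasm lets importins release cargo in the nucleus and lets exportins carry cargo out, so both directions of transport draw on it. Some RNAs, such as tRNAs, microRNA precursors and spliceosomal snRNAs, leave the nucleus on Ran-dependent exportins, whereas most mRNAs leave through NXF1, which does not need Ran directly.

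After 8 h of RANGAP1 loss both rises and falls were widespread, and falls of at least 2-fold outnumbered such rises. A gene was called when its adjusted p was under 0.05 and its fold at least 1.3 or at most 0.7, and when it was not called in the parental cells. Of 17812 genes tested, 1466 rose (8.23%) and 1179 fell (6.62%). The genes called higher had a median log2 fold change of 0.56 and those called lower one of -0.81. By at least 2-fold, 134 rose and 323 fell, and by at least 4-fold, 14 rose and 18 fell. In 2625 of the 2645 called genes the 3 values at 8 h did not overlap the 3 untreated values, which was also the case for 42.1% of all genes tested. Because the call rule is stricter for falls, the split turned when a fold of 1.3 was used in both directions, with 1464 genes higher and 1641 lower, as it did when libraries were scaled by size alone (1203 and 1339). With the replicate number as a block the counts were 1657 and 1481.

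**Figure D1:**
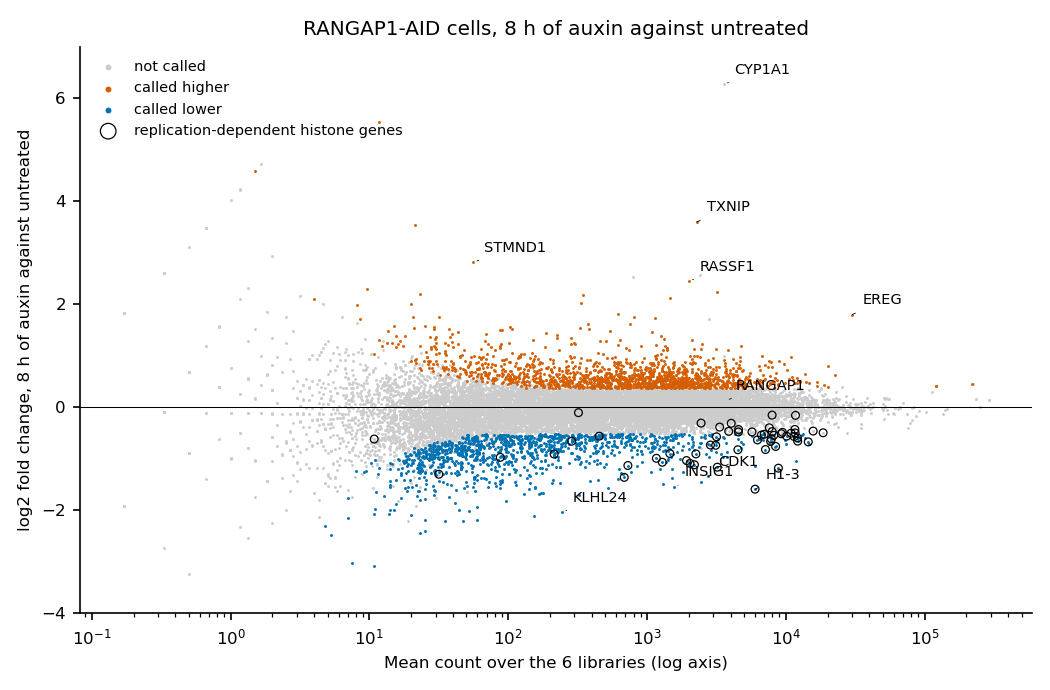
Log2 fold change at 8 h of auxin against untreated (y axis) against the mean count over the 6 RANGAP1-AID libraries (log x axis) for each gene with a count, with the 1466 genes called higher in orange and the 1179 called lower in blue. Open circles mark the 54 replication-dependent histone genes, all of which lie below 0, and CYP1A1, the highest labelled point, is grey because it was also called in parental cells.

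The RNA of the degraded protein itself was not called. RANGAP1 RNA stood at 97.8, 103 and 107 CPM in the untreated libraries and at 107, 111 and 120 CPM at 8 h (log2 fold change 0.13 ± 0.07, adjusted p = 0.187). The degron acts on the protein, so this RNA does not report the depletion. RCC1, whose locus carries TIR1, stood at 222 to 232 CPM untreated and 240 to 259 CPM at 8 h (0.15 ± 0.06, adjusted p = 0.114). In both genes the levels at 8 h lay at or above the highest untreated level, and both differences missed the threshold. In untreated parental cells, scaled in a separate fit, RANGAP1 RNA stood at 209.5 to 231.7 CPM, and in untreated NUP153-AID and AID-TPR cells at 243.3 to 298.7 CPM, above all RANGAP1-AID libraries.

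Among called genes with at least 50 counts on average, the largest rise was that of TXNIP, an alpha-arrestin that inhibits thioredoxin and restrains glucose uptake. TXNIP (ENSG00000265972, chr1:145992435-145996579, minus strand) stood at 9.80, 12.05 and 8.80 CPM untreated, at 14.2, 15.1 and 9.22 CPM after 2 h, and at 133, 145 and 93.7 CPM after 8 h. The values at 8 h lie far above all others, and those at 2 h overlap the untreated ones. The log2 fold change at 8 h was 3.603 ± 0.17 (adjusted p = 1.66e-06). ARRDC4, the alpha-arrestin most like TXNIP, rose as well, from 6.95 to 8.88 CPM untreated to 25.9 to 31.1 CPM at 8 h (1.81 ± 0.11, adjusted p = 8.27e-06). Both genes are known targets of MondoA and ChREBP, factors that respond to sugar phosphates and bind pairs of E-box-like elements. The 250 bases before each start site (RefSeq, GRCh38.p14) are printed because these are the genes of a known shared regulation that rose together; capitals mark copies of CACGNG on either strand (CNCGTG on the printed strand for the reverse), and overlapping copies run together.
TXNIP, chr1:145996580-145996829, minus strand: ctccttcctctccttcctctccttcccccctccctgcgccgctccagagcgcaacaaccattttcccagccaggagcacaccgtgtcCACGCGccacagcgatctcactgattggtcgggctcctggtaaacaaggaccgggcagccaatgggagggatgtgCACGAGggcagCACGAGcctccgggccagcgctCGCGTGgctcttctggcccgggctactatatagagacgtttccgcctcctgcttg
ARRDC4, chr15:97960453-97960702, plus strand: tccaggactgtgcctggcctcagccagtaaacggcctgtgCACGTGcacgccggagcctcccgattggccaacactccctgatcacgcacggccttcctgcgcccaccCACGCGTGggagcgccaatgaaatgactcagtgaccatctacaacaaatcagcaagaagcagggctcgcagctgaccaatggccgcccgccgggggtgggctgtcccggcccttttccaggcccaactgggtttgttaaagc
The TXNIP window holds 4 copies, of which 2 are separated by 5 bases and start 88 bases before the start site. The ARRDC4 window holds 3 copies and no such pair. Of 35116 promoter windows of 300 bases, 30.5% hold at least 1 copy and 0.0769% hold a pair with that spacing. Of the 18 tested genes with such a pair, 3 were called higher and 1 lower, where the shares of all genes tested were 8.23% and 6.62%. TXNIP, which was picked for its rise, is among the 3. A match is a description of these letters, not a measured binding site.

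Among the other large rises were genes of apoptosis, calcium release and growth factor signalling. RASSF1, a Ras association domain tumour suppressor, stood at 16.6 to 19.7 CPM untreated and at 93.9 to 101 CPM at 8 h (2.45 ± 0.08, adjusted p = 1.41e-07). TNFRSF10D, a decoy receptor for the death ligand TRAIL, rose from 30.3 to 35.4 CPM to 151 to 158 CPM (2.24 ± 0.08). ITPR1, the calcium channel of the endoplasmic reticulum opened by inositol trisphosphate, rose from 3.48 to 3.75 CPM to 14.4 to 18.1 CPM (2.18 ± 0.12). None of these ranges overlap. NANOS1, an RNA-binding translational repressor of the germ line, rose from 13.7 to 17.2 CPM to 68.2 to 69.1 CPM (2.12 ± 0.09), with 42.8 to 52.3 CPM already at 2 h. EREG, a ligand of the EGF receptor, stood at 312, 379 and 463 CPM untreated, 769, 851 and 1075 CPM at 2 h and 1301, 1293 and 1444 CPM at 8 h (1.80 ± 0.13, adjusted p = 1.64e-05). DDIT4, an inhibitor of mTORC1 induced by stress, rose from 13.6 to 16.8 CPM to 40.3 to 58.3 CPM (1.74 ± 0.14). ALDH1A3, an enzyme of retinoic acid synthesis, rose from 10.2 to 10.9 CPM to 32.3 to 33.5 CPM (1.63 ± 0.08). STMND1 rose by 2.82 ± 0.23 at a low level of 0.304 to 0.443 CPM untreated and 2.32 to 3.22 CPM at 8 h. In parental cells with auxin for 2 h STMND1 had -2.58 ± 0.43 and was not called (adjusted p = 0.105). Its parental levels were 0.567 to 1.388 CPM untreated and 0.106 to 0.258 CPM with auxin. MRM1, a mitochondrial rRNA methyltransferase, changed by 2.02 ± 0.14, and ENSG00000269926, an identifier without a name in the annotation used here, by 1.75 ± 0.14. The changes of ENSG00000269926 lay close to those of DDIT4 at 8 h and at 2 h (0.90 against 0.92). It had no count in the NUP153-AID and AID-TPR libraries used here. Whether it shares reads with DDIT4 was not tested, so it may not be a separate rise.

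**Figure D2:**
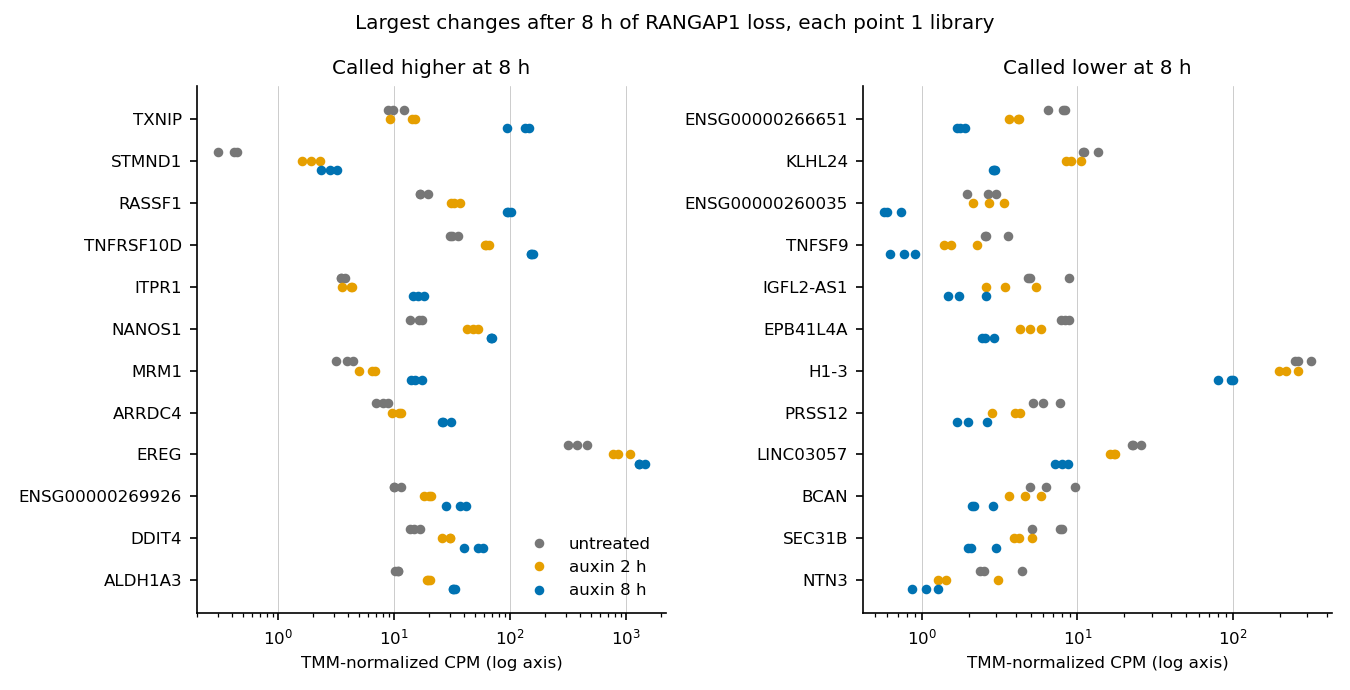
TMM-normalized CPM (log x axis) of the 12 genes with the largest rise (left) and the 12 with the largest fall (right) at 8 h among called protein-coding, long noncoding and unannotated genes with at least 50 counts on average, parental calls such as CYP1A1 left out, in each of the 9 RANGAP1-AID libraries, untreated in grey, 2 h in orange and 8 h in blue. In all 24 genes the 8 h points are apart from the untreated points, and for TXNIP, ITPR1 and KLHL24 the 2 h points lie near the untreated ones.

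The largest falls of protein-coding and long noncoding genes were mostly at low levels. KLHL24, a substrate adaptor of a cullin-3 ubiquitin ligase, stood at 11.02, 10.8 and 13.6 CPM untreated, 8.39 to 10.5 CPM at 2 h and 2.93, 2.92 and 2.86 CPM at 8 h (-2.03 ± 0.13, adjusted p = 8.27e-06). H1-3, a linker histone, was the most abundantly counted of the 12, at 251 to 315 CPM untreated and 79.5 to 99.5 CPM at 8 h (-1.59 ± 0.11, adjusted p = 1.23e-05). ENSG00000266651, a noncoding RNA at chr17:16440479-16440952, fell from 6.48 to 8.34 CPM to 1.67 to 1.89 CPM (-2.11 ± 0.14). ENSG00000260035, a noncoding RNA at chr15:45200325-45200632, fell from 1.96 to 2.99 CPM to 0.572 to 0.730 CPM (-2.02 ± 0.23). TNFSF9, the ligand of the T cell receptor 4-1BB, fell from 2.55 to 3.58 CPM to 0.620 to 0.897 CPM (-1.94 ± 0.22). The other falls of this group were those of IGFL2-AS1 (-1.69 ± 0.27), EPB41L4A (-1.66 ± 0.12), PRSS12, a secreted serine protease (-1.58 ± 0.20), LINC03057 (-1.57 ± 0.10), BCAN, the proteoglycan brevican (-1.57 ± 0.24), SEC31B, a component of COPII vesicle coats (-1.55 ± 0.21) and NTN3, a netrin (-1.55 ± 0.27). IGFL2-AS1 is named as antisense to IGFL2, and its counts came from a strand-specific library kit while the strand setting of the counting is not given in the sources used here. ENSG00000266651 lies opposite SNHG29 (-0.21, not called), and EPB41L4A overlaps EPB41L4A-AS1 on the other strand (-1.11, called lower). Whether these genes share reads with the opposite strand was not tested, so their falls may not be separate.

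Targets of the aryl hydrocarbon receptor (AHR), the receptor that induces xenobiotic-metabolizing enzymes, were much higher at 8 h, but CYP1A1 and CYP1B1 were also called in the auxin control. CYP1A1, its classical target, stood at 3.30, 2.33 and 2.08 CPM untreated, 139 to 164 CPM at 2 h and 175 to 229 CPM at 8 h, the largest change of all genes tested (6.28 ± 0.17). CYP1B1 followed, from 18.2 to 21.4 CPM to 94.75 to 140.5 CPM at 8 h (2.57 ± 0.14). Both were called in the opposite direction in parental cells after 2 h of auxin (CYP1A1 -3.84 ± 0.13, CYP1B1 -1.14 ± 0.08), where 10 genes were called (0.0561% of those tested), all lower. These 10 genes, 6 of which passed the fold and p thresholds at 8 h of RANGAP1 loss, are left out of the counts of called genes in the edited lines. The number of genes tested, the medians of lists and the tests of the difference between lines keep them. AHRR, the repressor of the receptor, was not called in parental cells and rose by 1.00 ± 0.08. Of the 8 tested members of the AHR list, 3 were counted as higher and none as lower after that removal.

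The replication-dependent histone genes fell as a class. Their mRNAs are made in S phase, lack introns and a poly(A) tail and end instead in a conserved stem-loop that SLBP binds. Of 54 tested, 33 fell (61.1%, against 6.62% of all genes), none rose and all 54 had a log2 fold change below 0, with a median of -0.60. The median for all genes tested was -0.007. The median of the same genes at 2 h was -0.05 and none was called then. All 5 families were represented, with 10 of 14 H2A genes, 10 of 15 H2B genes, 6 of 9 H3 genes, 6 of 12 H4 genes and 1 of 4 H1 genes called lower. H2AC25 fell from 28.2 to 31.9 CPM to 10.9 to 12.2 CPM (-1.36 ± 0.09), H2BC11 from 333.9 to 404.5 CPM to 145 to 181 CPM (-1.18 ± 0.10) and H2AC4 from 120 to 146 CPM to 53.4 to 68.2 CPM (-1.16 ± 0.10). The values at 8 h and untreated do not overlap in any of these. The members nearest to 0 were all H4 genes, with H4C3 and H4C4 at -0.15 each and H4C11 at -0.10, none of them called. Histone genes are near-identical copies of each other, so the authors' counting may have divided reads among them, and single members are less certain than the class.

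The stem-loop is printed for the 4 histone genes with the largest called falls, in capitals and with 5 bases on each side, as DNA letters of the transcript (GENCODE 44).
H1-3, gene at chr6:26234212-26234987, minus strand: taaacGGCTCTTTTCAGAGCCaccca
H2AC25, gene at chr1:228434777-228457873, minus strand: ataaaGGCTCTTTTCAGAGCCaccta
H2BC11, gene at chr6:27125897-27132795, minus strand: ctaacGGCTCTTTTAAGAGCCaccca
H2AC4, gene at chr6:26033092-26033618, minus strand: gcaaaGGCTCTTTTCAGAGCCaccta
Every one of the 54 tested genes holds the stem-loop in a transcript (6 paired bases on each side of a loop of 4), as did 103 of all 17812 genes tested (0.578%). Of the 49 others, which include chance matches within longer transcripts, 2 were called lower and 3 higher, with a median of 0.05. H2AX, a replacement histone whose transcript also holds the stem-loop, stood at 156, 171 and 202 CPM untreated and 160, 166 and 186 CPM at 8 h (-0.05 ± 0.10). SLBP itself rose, from 136 to 172 CPM to 205 to 248 CPM (0.53 ± 0.10), as did the cap-binding subunit NCBP2 (0.65 ± 0.07), and these were the only 2 called among 14 tested genes of histone mRNA processing.

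Small nuclear and nucleolar RNAs fell too. Small nucleolar RNAs (snoRNAs) guide the modification of rRNA, most of them are cut from introns of host genes, and box C/D members guide methylation while box H/ACA members guide pseudouridylation. Of 211 tested snoRNAs, 86 fell (40.8%) and 4 rose, with a median of -0.65. Some loci are listed repeatedly under different identifiers, such as SNORA16A (-0.888 and -0.887) and SNORD38B (-0.802 and -0.796). These counts therefore exceed the number of separate loci. At 2 h 3 were called lower and the median was -0.22. The fall was seen in 56 of 106 box C/D members named SNORD and in 23 of 89 box H/ACA members named SNORA. SNORD99 fell from 3.37, 3.04 and 2.604 CPM to 0.538, 0.696 and 0.715 CPM (-2.19 ± 0.20), SNORD12C from 3.80 to 5.84 CPM to 1.14 to 1.56 CPM (-1.81 ± 0.21), SNORD12B from 3.06 to 4.46 CPM to 0.838 to 1.69 CPM (-1.56 ± 0.24) and SNORD73A from 2.02 to 3.34 CPM to 0.663 to 1.11 CPM (-1.54 ± 0.25). SNORD3A, the abundant U3 snoRNA with a promoter of its own, stood at 2530 to 3406 CPM untreated and 3367 to 4104 CPM at 8 h and was not called (0.31 ± 0.12, adjusted p = 0.0736). Other U3 entries differed from it. SNORD3B-2 (-0.53) and an entry named U3 (-0.89) were called lower, whereas SNORD3B-1 (-0.33), SNORD3C (-0.65) and SNORD3D (-0.24) were not called. The snoRNAs within host genes that had the most counts, SNORA73A and SNORA73B, were not called either (0.19 each). Whether level or promoter plays a part was not tested.

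These 4 box C/D snoRNAs, the called members named SNORD with the largest falls and at least 50 counts on average, are printed from hg38 with box C (TGATGA, sought in the first 20 bases) and box D (CTGA, in the last 20) in capitals; SNORD99 has no exact copy of box C there.
SNORD99, chr1:28578749-28578822, minus strand, within SNHG12: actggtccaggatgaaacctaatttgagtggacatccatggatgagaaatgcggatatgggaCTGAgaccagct
SNORD12C, chr20:49278940-49279028, plus strand, within ZFAS1: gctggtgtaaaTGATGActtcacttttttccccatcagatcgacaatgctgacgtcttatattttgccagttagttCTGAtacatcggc
SNORD12B, chr20:49280319-49280409, plus strand, within ZFAS1: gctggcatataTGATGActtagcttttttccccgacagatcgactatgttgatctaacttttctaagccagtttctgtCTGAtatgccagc
SNORD73A, chr4:151103827-151103891, plus strand, within RPS3A: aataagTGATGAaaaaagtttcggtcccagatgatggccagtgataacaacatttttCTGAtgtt
The snoRNAs called lower were set beside the spliced hosts that hold them. A tested host gene enclosed 83 of the 86 fallen snoRNAs on the same strand, with repeated loci counted each time. In 22 cases the host was called lower, in 57 it was not called and in 4 it was called higher, and 77 of the 83 had a lower log2 fold change than their host. The median was -0.95 over these snoRNAs and -0.085 over their 44 hosts. These snoRNAs were chosen for their fall and the hosts were not, which by itself places the snoRNAs lower. No such comparison was made over all 199 snoRNAs with a tested host. RPS3A, the ribosomal protein gene that holds SNORD73A, had -0.02, ZFAS1 had -0.40 and SNHG12 -1.26. Reads over a snoRNA can come from the mature snoRNA or from its host's unspliced transcript, and gene counts cannot tell them apart.

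Among 45 tested spliceosomal and other snRNA genes, 19 fell (42.2%) and none rose. These RNAs are the core of the spliceosome, and U1 recognizes the 5′ splice site. Most of the genes called lower belong to the U1 family, in which 16 of 19 tested genes, including variants named RNVU1, were called lower with a median of -1.105. Of the 26 others, 3 were called lower, with a median over the 26 of -0.085. These were RNU5D-1, RNU2-63P and a copy named U4 with 57.5 counts on average. The U4 and U2 genes with the most counts were not called and lay above 0. RNU4-1 had 0.21 ± 0.07, RNU4-2 0.31 ± 0.09 and RNU2-2P 0.14 ± 0.14. RNVU1-27 fell from 14.5 to 15.9 CPM to 6.08 to 7.06 CPM (-1.16 ± 0.10) and RNU1-1 from 2.73 to 3.20 CPM to 0.906 to 1.53 CPM (-1.38 ± 0.20). Copies of U1 share almost all of their sequence, so single copies are uncertain. The copy with the most counts, RNVU1-31, was not called, at 78.9 to 101.5 CPM untreated and 78.8 to 104.7 CPM at 8 h (0.04 ± 0.12, adjusted p = 0.857). None of the abundant RNA polymerase III transcripts was called lower. RMRP stood at 5642 to 7064 CPM untreated and 7233 to 7432 CPM at 8 h (0.17 ± 0.10, not called), and of 7 tested transcripts of this kind 2 were called higher. These were RPPH1, the RNA of RNase P, and RN7SL2, an RNA of the signal recognition particle. RPPH1 lost the call without 8 h replicate 1 (0.36) or untreated replicate 1 (0.36), and RN7SL2 without 8 h replicate 1 (0.46) or 3 (0.35) or untreated replicate 1 (0.32) or 2 (0.45).

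By annotated class, long noncoding RNAs were called lower more often than higher and protein-coding genes the reverse. Of 2884 tested lncRNAs 294 fell (10.2%) and 161 rose (5.58%), and of 13137 protein-coding genes 639 fell and 1227 rose. NEAT1, the scaffold of paraspeckles, fell from 47.4 to 81.3 CPM to 19.5 to 29.2 CPM (-1.37 ± 0.19). NORAD, a cytoplasmic decoy of Pumilio proteins (-0.64 ± 0.10), and HOTTIP, a lncRNA of the HOXA locus (-0.67 ± 0.08), fell as well, and 5 of the 11 tested members of this list of long noncoding RNAs were called lower. SNHG genes, noncoding snoRNA hosts, were called lower in 7 of 25 cases (28.0%) and higher in 2 (8.0%). SNHG12 fell from 70.0 to 83.2 CPM to 31.3 to 32.8 CPM (-1.26 ± 0.08), with 51.3 to 52.7 CPM at 2 h, and SNHG4 (-0.79 ± 0.07) and SNHG5 (-0.75 ± 0.09) followed. Single-exon protein-coding genes without the histones lay near the shares of all genes tested (8.23% higher, 6.62% lower), with 25 higher (9.47%) and 20 lower (7.58%) of 264. Among protein-coding genes, genes divided into 4 equal bins by length had 298 called higher and 261 lower in the shortest bin and 291 and 102 in the longest. With 4 bins by mean count, the lowest held 259 higher and 342 lower and the highest 252 and 65, so that length and level move together with the direction of the calls and their part in it was not tested.

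**Figure D3:**
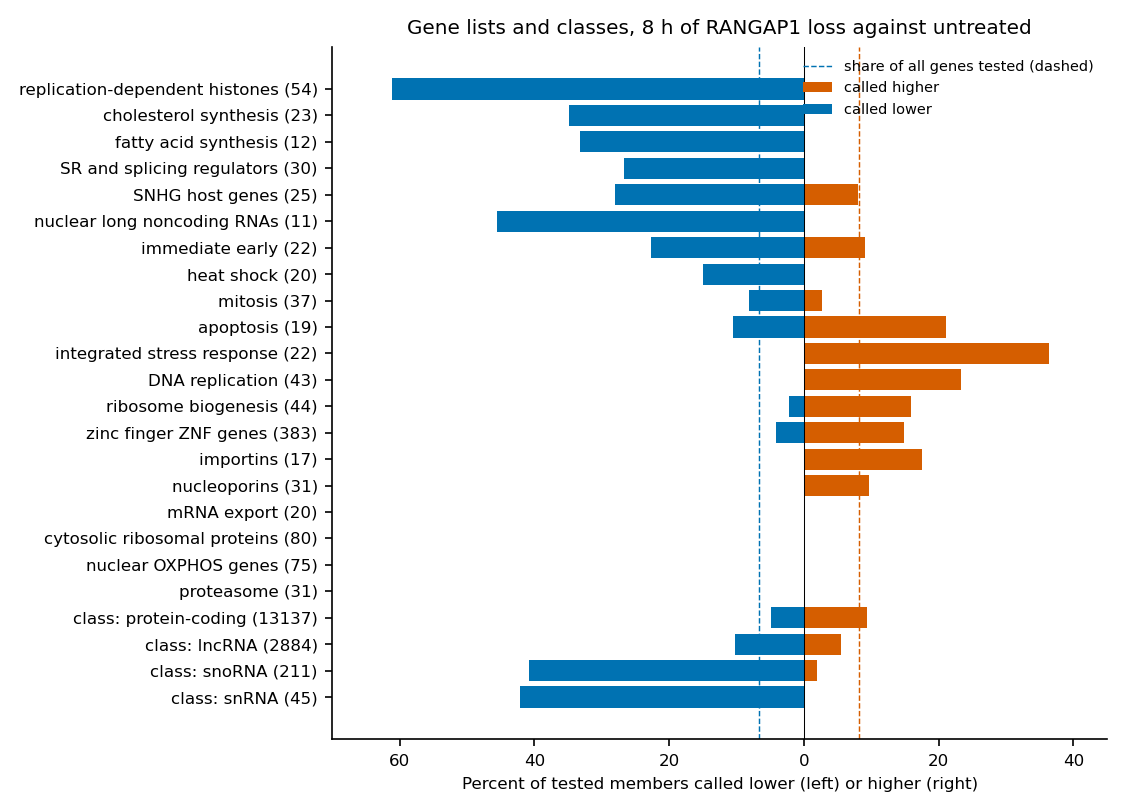
Percent of the tested members of gene lists and classes called lower (blue, left) or higher (orange, right) at 8 h, with the number tested in parentheses and dashed lines at 6.62% and 8.23%, the shares of all genes tested. Histones reach 61.1% called lower with none higher, and mRNA export factors, ribosomal proteins, OXPHOS genes and proteasome subunits have no bar in either direction.

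Several genes of cholesterol and fatty acid synthesis fell. They are driven by SREBP factors, which INSIG1 holds back in the endoplasmic reticulum when sterols are plentiful. Of 23 tested genes of cholesterol synthesis and uptake 8 fell (34.8%, against 6.62% of all genes) and none rose (8.23% of all genes). In 21 of them the log2 fold change was below 0, and the median was -0.31. INSIG1 stood at 71.4, 50.05 and 86.4 CPM untreated, 57.3, 40.7 and 51.2 CPM at 2 h and 23.7, 21.4 and 26.3 CPM at 8 h (-1.54 ± 0.17, adjusted p = 0.000169). STARD4, a sterol carrier, fell from 28.6 to 48.4 CPM to 14.2 to 22.2 CPM (-1.07 ± 0.21) and squalene epoxidase SQLE from 99.6 to 119 CPM to 59.8 to 65.8 CPM (-0.83 ± 0.08). The 8 h and untreated values do not overlap in these 3. Of 12 tested genes of fatty acid synthesis 4 fell (33.3%, against 6.62% of all genes) and none rose, while 8 of the 12 lay below 0. Among the 4 were SREBF1, which encodes SREBP1 (-0.77 ± 0.12), and ATP citrate lyase ACLY (-0.58 ± 0.06). The other called members, fatty acid synthase FASN and the desaturase SCD, both lost the call without untreated replicate 3 (-0.44 and -0.42), and SCD also without untreated replicate 1 (-0.48) or 8 h replicate 2 (-0.41).

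Stress and early response genes moved in both directions. The integrated stress response raises ATF4 and its targets when eIF2α is phosphorylated. Of 22 tested members 8 rose (36.4%) and none fell, led by DDIT4, ATF3 (1.62 ± 0.13), the glutathione-degrading CHAC1 (0.91 ± 0.16) and the amino acid transporter SLC7A5 (0.80 ± 0.08). ATF4 rose by 0.59, whereas DDIT3, a proapoptotic target, had -0.17 (adjusted p = 0.413) and ASNS, asparagine synthetase, 0.15 (adjusted p = 0.302). Of 22 immediate early genes, which growth signals switch on within minutes, 2 rose (9.09%, against 8.23% of all genes) and 5 fell (22.7%, against 6.62%). JUN rose from 17.5 to 31.2 CPM to 44.6 to 56.3 CPM (1.03 ± 0.17), with 55.2 to 70.4 CPM at 2 h. FOS, its partner in AP-1, fell from 3.27 to 3.72 CPM to 1.17 to 1.79 CPM (-1.35 ± 0.18), and CCN2 (-0.80 ± 0.15) fell as well. Of 19 tested genes of apoptosis 4 rose (21.1%) and 2 fell (10.5%). The proapoptotic PMAIP1 rose from 16.2 to 17.5 CPM to 41.8 to 54.2 CPM (1.47 ± 0.11) and, outside this list, the stress sensor GADD45A by 1.39 ± 0.10, whereas BBC3, another proapoptotic BH3-only gene, fell by 0.82. BCL2L1, which protects from apoptosis, fell by 0.96 and the effector BAK1 rose by 0.79. Of 20 heat shock genes none rose and 3 fell (15.0%), among them the chaperone HSPH1 (-0.77 ± 0.10).

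Genes of DNA replication were called higher and splicing regulators lower more often than all genes tested. Of 43 tested genes of DNA replication 10 rose (23.3%) and none fell, with a median of 0.23, and SLBP, named above, is one of them. The helicase subunit GINS3 (0.73 ± 0.12), the single-strand binding subunit RPA2 (0.69 ± 0.11), cyclin E1 gene CCNE1 (0.67 ± 0.09) and the initiation factor MCM10 (0.67 ± 0.08) had the largest changes. Of 37 mitotic genes 3 fell (8.11%, against 6.62% of all genes) and 1 rose. CDK1, the kinase that drives entry into mitosis, fell from 111.5, 128 and 116.5 CPM to 44.8, 45.6 and 50.5 CPM (-1.34 ± 0.08, adjusted p = 7.69e-06), with 95.5 to 117 CPM at 2 h. UBE2C, the ubiquitin-conjugating enzyme of the anaphase-promoting complex, fell by 0.82 and the kinase AURKA by 0.61, and MAD2L1, of the spindle checkpoint, rose by 0.51. The other 33 were not called, and the median over the list was 0.11. Of 30 SR proteins and splicing regulators 8 fell (26.7%) and none was counted as higher. CLK1, a kinase of SR proteins, fell from 49.3 to 63.2 CPM to 27.1 to 30.3 CPM (-1.02 ± 0.10), SRSF2 by 0.72, RBM39 by 0.70 and TRA2A by 0.65. CLK3 had 1.01 ± 0.07 and was left out because it was called in parental cells.

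**Figure D4:**
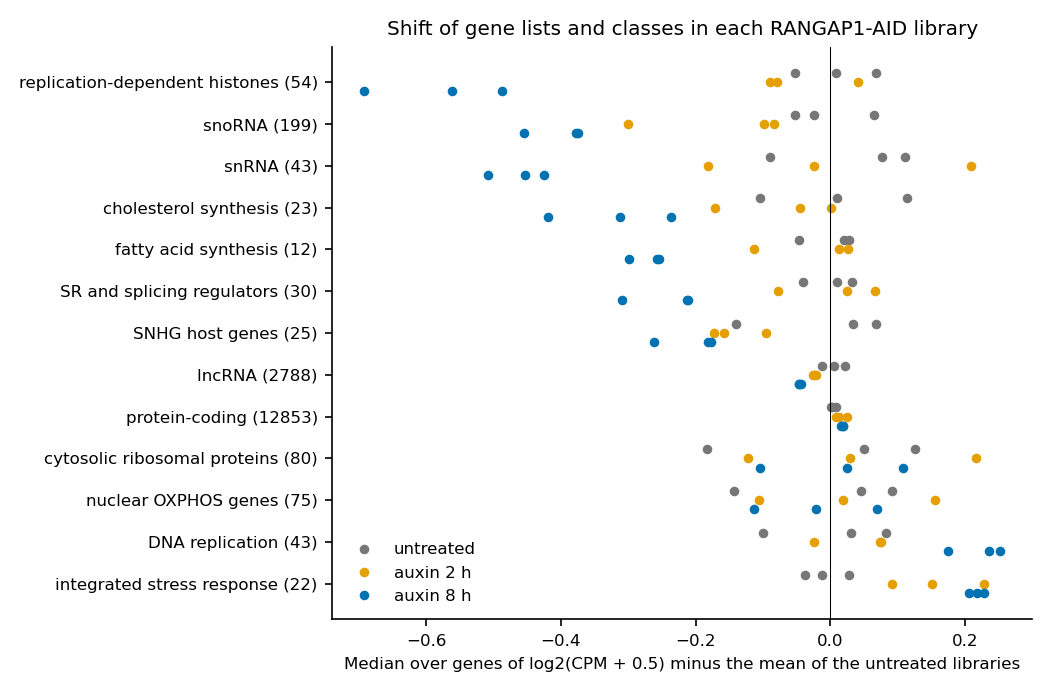
Median over the genes of a list or class of log2(CPM + 0.5) minus the mean of the untreated libraries, 1 point per RANGAP1-AID library (untreated grey, 2 h orange, 8 h blue). Genes averaging under 10 counts are not plotted. Histones lie between -0.69 and -0.49 in the 8 h libraries and between -0.09 and 0.04 at 2 h, whereas ribosomal protein and OXPHOS genes overlap in all 3 groups.

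Few genes of the transport machinery itself were called. None of 8 tested genes of the Ran cycle, 7 exportins and 20 mRNA export factors was called. RAN stood at a log2 fold change of 0.17 ± 0.09 (adjusted p = 0.182) and XPO1, the exportin CRM1, at -0.32 ± 0.13 (adjusted p = 0.0947). Of 17 importins 3 rose (17.6%), KPNA5 (0.89 ± 0.14), TNPO2 (0.75 ± 0.06) and KPNA4 (0.46 ± 0.08). Of 31 nucleoporins 3 rose (9.68%, against 8.23% of all genes), with NUP62, a central channel component, at 0.58 ± 0.06. The others, NUP58 and RAE1, lost the call without 8 h replicate 3 (NUP58, 0.37), untreated replicate 1 (NUP58, 0.36) or untreated replicate 3 (RAE1, 0.36). None of 80 cytosolic ribosomal protein genes, 75 nuclear OXPHOS genes, 31 proteasome subunits, 20 aminoacyl tRNA synthetases and 17 glycolytic genes was called. Zinc finger genes named ZNF, a large family of repressors, were called higher in 57 of 383 cases (14.9%) and lower in 16 (4.18%). The shares of all genes tested were 8.23% and 6.62%. The intestinal transcription factor CDX2 rose from 115 to 140 CPM to 245 to 282 CPM (1.00 ± 0.09), while its change in parental cells was -0.42.

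Far more genes were called at 8 h than at 2 h. At 2 h 78 genes were called higher (0.438%) and 19 lower (0.107%), and with the replicate number as a block 251 and 176. The 2 h count of 97 rests on single libraries, with 35 without 2 h replicate 2, 53 without untreated replicate 1 and 33 without untreated replicate 2. The direct test of 8 h against 2 h called 925 genes higher (5.19%) and 637 lower (3.58%), and with a fold of 1.3 in both directions 925 higher and 966 lower. It uses none of the untreated libraries. Of the genes called at 8 h against untreated, 786 of the 1466 higher and 458 of the 1179 lower were also called in the same direction against 2 h, both comparisons sharing the 8 h libraries. Of the 54 histone genes, 32 were called lower in it, as were 26 snoRNAs, 17 snRNAs and 6 cholesterol genes, and 9 DNA replication genes were called higher. TXNIP (3.28 ± 0.20), ITPR1 (2.00 ± 0.13), RASSF1 (1.54 ± 0.08), GLI2, a factor of Hedgehog signalling (1.45 ± 0.19), and CASS4 (1.41 ± 0.16) had the largest rises. In GLI2 the 2 h values of 0.999 to 1.76 CPM overlapped the untreated ones of 1.11 to 1.56 CPM, and those at 8 h were 3.65 to 4.28 CPM.

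PRDM1 and CCN1 had gone up by 2 h and were below the untreated level by 8 h. PRDM1, a transcriptional repressor known from plasma cells, stood at 2.33, 2.16 and 1.98 CPM untreated, 16.6, 16.4 and 11.7 CPM at 2 h and 1.17, 1.46 and 1.67 CPM at 8 h. Its change from 2 h to 8 h was -3.36 ± 0.18 (adjusted p = 7.86e-06), and its fall at 8 h against untreated (-0.58) lost its call without any one of 4 libraries: 8 h replicate 1 (-0.45), 8 h replicate 2 (-0.59), untreated replicate 1 (-0.52) or untreated replicate 2 (-0.58). CCN1, a secreted matricellular protein, stood at 50.4 to 70.7 CPM untreated, 152 to 164 CPM at 2 h and 45.2 to 47.4 CPM at 8 h (-1.77 ± 0.07 from 2 h to 8 h), and its difference at 8 h from untreated (-0.42) was not called, except without untreated replicate 1 (-0.55). KDM7A, a histone demethylase, took the other course, with 51.1 to 66.2 CPM at 2 h, 52.1 to 63.6 CPM untreated and 19.2 to 22.2 CPM at 8 h (-1.49 ± 0.11 from 2 h). KLHL24 and ENSG00000260035 completed the 5 largest falls of that comparison.

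Whether these effects differed from those of losing a pore protein was tested by the interaction of line and auxin at 8 h. The RANGAP1 effect differed from that of NUP153 loss in 1861 genes (10.4%), 1055 higher after RANGAP1 loss and 806 lower, and from that of TPR loss in 2027 genes (11.4%), 1207 higher and 820 lower. Scaling by library size alone turned the first split to 690 higher and 1131 lower and moved the second to 1606 and 528. The NUP153 and TPR libraries lacked counts for 996 and 1043 of the tested genes. Those genes could not pass this test, and none did, although the shares above include them. RMRP had 162311 to 310744 counts in each RANGAP1-AID library and 0 in those of both other lines. The reason was not tested. Of the 2645 genes called after RANGAP1 loss, 1140 differed from NUP153 loss (43.1%) and 782 from TPR loss (29.6%). On their own, 235 genes were called after NUP153 loss and 639 after TPR loss. The count against TPR loss was 1170, 1237 and 1243 without 8 h replicate 1, 2 or 3 of RANGAP1-AID, 1177 without its untreated replicate 2 and 4227 without the TPR 8 h library old2.

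The genes with the largest changes did not behave alike in the other lines. NANOS1 had 0.02 ± 0.25 after NUP153 loss and -0.02 ± 0.25 after TPR loss, and ITPR1 had 0.30 ± 0.17 and 0.02 ± 0.25. TXNIP had -0.33 ± 0.10 after NUP153 loss and 0.90 ± 0.40 after TPR loss, and its effect differed from both (difference 3.95 ± 0.22 from NUP153, adjusted p = 4.1e-08, and 2.70 ± 0.52 from TPR, adjusted p = 0.00509). The TPR libraries old1, old2 and old3 at 8 h held TXNIP at 169.5, 41.9 and 140.6 CPM, against 48.5 to 72.4 CPM untreated. RASSF1 had 0.94 ± 0.15 after NUP153 loss and -0.43 ± 0.23 after TPR loss and differed from both. STMND1 had 1.94 ± 0.37 after NUP153 loss and 3.70 ± 0.49 after TPR loss, and its effect did not pass the test against either (adjusted p = 0.27 and 0.373). Its change in parental cells with auxin, given above, was in the opposite direction. IGFL2-AS1 fell by 1.69 after RANGAP1 loss, had -0.91 and -0.70 in the other lines and did not pass either test (adjusted p = 0.216 and 0.0931). Of the 12 genes, 10 differed from NUP153 loss and 9 from TPR loss, shares that the choice of genes favoured, since they were picked for large changes in the same RANGAP1-AID libraries. Among the other large rises, ARRDC4 (1.08 after TPR loss), EREG (1.10), DDIT4 (1.02) and ALDH1A3 (1.23) passed the test against NUP153 loss but not against TPR loss. Their adjusted p against TPR loss was 0.183, 0.116, 0.522 and 0.318, while MRM1 passed both tests.

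**Figure D5:**
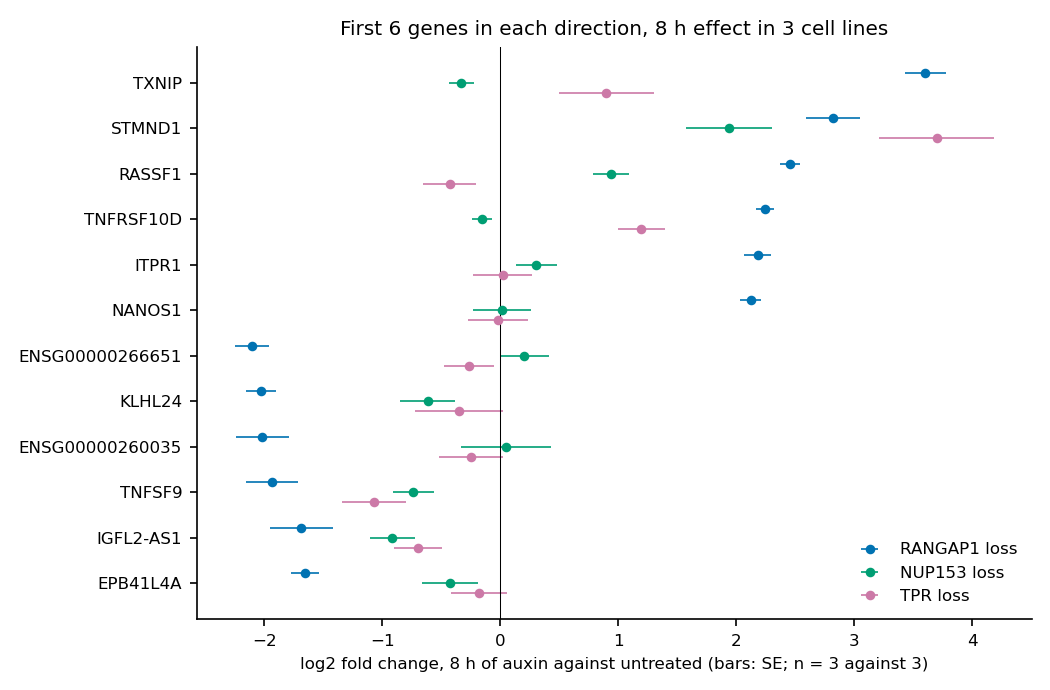
Log2 fold change at 8 h of auxin against untreated, with SE bars (n = 3 against 3), of the first 6 genes in each direction after loss of RANGAP1 (blue), NUP153 (green) or TPR (pink). STMND1 lies far above 0 in all 3 lines, whereas NANOS1 and ITPR1 lie at 2.12 and 2.18 after RANGAP1 loss and between -0.02 and 0.30 in the other lines. Parental cells, where STMND1 was lower with auxin, are not plotted.

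For the gene groups, the histone median was -0.60 after RANGAP1 loss, -0.33 after NUP153 loss and 0.06 after TPR loss, and 16 and 37 of the 54 genes were lower after RANGAP1 loss in the test of the difference, with none higher. For cholesterol synthesis the medians were -0.31, -0.43 and -0.09, no gene differed from NUP153 loss and 1 differed from TPR loss. For DNA replication they were 0.23, -0.06 and 0.07, with 17 of 43 genes higher than after NUP153 loss and 5 of 43 higher than after TPR loss. Over all 17812 genes tested, 1055 were higher and 806 lower than after NUP153 loss (10.4% in either direction). Against TPR loss these counts were 1207 and 820 (11.4%). For snoRNAs this comparison is limited, since 120 of 211 had no count in the NUP153 libraries and 123 none in the TPR libraries.

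Epithelial markers were present in every library. Of 17 markers of colonic epithelium, summed levels were 6000 to 6240 CPM untreated and 5710 to 6060 CPM at 8 h (before TMM scaling), carried by KRT8, KRT18, CDH1, KRT19 and EPCAM. MUC2, FABP1, CEACAM5 and GUCA2A, genes of differentiated cells, had at most 3 counts in a library, and CDX1, LGALS4 and CEACAM6 at most 5. KRT20 stood at a mean of 41.9 CPM untreated and 40.4 CPM at 8 h. Summed markers of fibroblasts stood at 0.301 to 1.06 CPM untreated and 0.618 to 0.684 CPM at 8 h, those of immune cells at 3.62 to 4.90 and 3.62 to 5.03 CPM and those of endothelium at 3.78 to 3.98 and 3.54 to 4.09 CPM. PECAM1, an endothelial adhesion molecule too low to be tested, had 5, 6 and 5 counts untreated and 32, 25 and 32 at 8 h.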

How the data were processed

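Per the labels and the study's methods, total RNA of DLD-1 clones was depleted of rRNA, made into strand-specific TruSeq libraries and sequenced as 101-base pairs, and the authors mapped the pairs with STAR (GRCh38) and obtained counts per gene from featureCounts (versions 2.6.1c and 1.5.2 in the submitters' processing notes, with other versions in the methods). The deposited values are raw counts for 58051 Ensembl genes, with 1 file per sample, and the total RNA is described as coming from independent biological replicates. RANGAP1-AID libraries were compared with edgeR 4.0.16 in R 4.3.3 (TMM, quasi-likelihood test, Benjamini-Hochberg adjustment), with only the groups compared in each fit, over the 17812 genes with CPM above 1 in at least 4 of 60 libraries without Actinomycin D; 54 of them had no count in the 6 libraries of the 8 h comparison. The Actinomycin D libraries were not used. The genes named were RANGAP1 and RCC1, the 12 largest called changes in each direction among genes annotated as protein-coding or lncRNA, or not annotated, with at least 50 counts on average and no overlap, up to 4 called members of each list, and, under the same conditions, the 5 largest changes in each direction at 8 h against 2 h; genes named outside this rule (ATF4, DDIT3, ASNS, CYP1A1, CYP1B1, CLK3, H2AX, H4C3, H4C4, H4C11, PECAM1, RNVU1-31 and the other snRNAs, snoRNAs, their hosts and RMRP) were chosen after their values were seen. Gene lists are described by counts and medians without a test. Members, lists and rules were chosen with earlier results of these data known. Names, biotypes and coordinates came from GENCODE 44, which held 56948 of the identifiers. Same-numbered RANGAP1-AID libraries deviated together (correlations of 0.238 to 0.641 between 8 h and untreated, 0.377 to 0.739 between 2 h and untreated and 0.329 to 0.64 between 8 h and 2 h), so the numbers pair these libraries. NUP153 numbers did not (-0.393 to 0.235), nor did those of TPR (0.005 to 0.421). The main tests used group alone and left the pairing out, so their SEs, adjusted p values and calls ignore it. With the replicate number as a block 3138 genes were called at 8 h and 427 at 2 h. No 2 replicates of a group were alike within sampling noise (chi-square per degree of freedom 5.66 to 31.62). Alternatives used RLE scaling, library sizes alone, DESeq2 1.42.0, other filters, the block, other fold rules and libraries left out. The tests were checked on simulated counts. Overlapping genes share reads: UGT1A8 and UGT1A9 had identical counts (10, 14 and 10 untreated). Results for a few genes are not reported here.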

Additional observations from a re-analysis of the deposited data

Results flagged for a closer look

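The effect of 8 h of auxin differed between RANGAP1-AID and NUP153-AID cells in 1861 genes and between RANGAP1-AID and AID-TPR cells in 2027 genes by edgeR's interaction test. Differences are log2 fold changes after RANGAP1 loss minus those after loss of the other protein, over 3 against 3 samples in each line. TXNIP differed by 3.95 from NUP153 loss and by 2.70 from TPR loss. RASSF1 differed by 1.53 and 2.88, and TNFRSF10D by 2.42 and 1.05. ITPR1 differed by 1.89 and 2.16, and NANOS1 by 2.12 and 2.14. In the other direction ENSG00000266651 differed by -2.29 and -1.84, KLHL24 by -1.40 and -1.68, ENSG00000260035 by -2.05 and -1.77 and EPB41L4A by -1.21 and -1.48. TNFSF9 differed by -1.18 from NUP153 loss.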

How the results depend on the processing

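Each alternative changed 1 choice, except that DESeq2 also brought its own scaling. The count of genes called after 8 h (2645) ranged from 2404 with DESeq2 to 3650 without the filter on low counts, and from 2172 to 2571 without 1 library. Library sizes alone gave 1203 higher and 1339 lower, with the median of all genes at -0.048. At 8 h against 2 h (1562) the range without 1 library was 1064 to 1678. The count at 2 h (97) was 176 with DESeq2, 427 with the replicate block, 162 in one fit over the 9 RANGAP1-AID libraries, 342 without the filter and 33 to 88 without 1 library. The parental count (10) was 24 with DESeq2, 48 with the replicate block and 52 without the filter, alternatives chosen after seeing the data. The interaction with NUP153 (1861) ranged from 1262 to 2072 without 1 library, and that with TPR (2027) from 1170 to 4227. The replicate block took the latter to 3060, although TPR numbers do not pair its libraries, and the block moved the counts at 8 h, at 8 h against 2 h and against NUP153 by less than 1.5 times. The cause of these moves was not tested. Without 1 library the histones called lower ranged from 27 to 38, snoRNAs from 66 to 89, snRNAs from 13 to 20, cholesterol genes from 6 to 9 and replication genes called higher from 8 to 13. Of 149 named genes, of which 131 were called, 21 lost the call in an alternative, each of them without some 1 library, and none of the called genes changed direction in the alternatives run. Depth limits genes under about 50 counts most.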
